A study of Mus musculus with 6 samples.

Results

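The genes described are TCF4, TCF3, TCF12, SPIB, BCL11A, RUNX2, ZEB2 and ID2, that is, the 3 E protein genes together with transcription factors tied to plasmacytoid dendritic cells. They were chosen by name, with earlier results of these data known, and all 8 were found among the 13892 gene rows of the deposited table. The libraries came from the bone marrow of 3 moribund NSG mice, an immunodeficient strain, each engrafted from its own transduction of human hematopoietic stem cells with NPM1c, the cytoplasmic mutant of nucleophosmin, and bearing acute myeloid leukemia (AML). From each mouse, leukemic stem cells (LSC) were sorted as cells positive for GFP, CD33 and CD123, and bulk leukemic cells as cells positive for GFP and CD33. GFP stood in for NPM1c expression, so both populations carried the transgene, and bulk cells were not selected for or against CD123, the alpha chain of the interleukin 3 receptor. There were 3 LSC and 3 bulk libraries, numbered by the mouse they came from.

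E proteins are basic helix-loop-helix transcription factors that bind E-box DNA as dimers with one another or with tissue-specific partners. ID proteins lack the basic region and take E proteins out of DNA binding. In dendritic cells, TCF4 is the E protein that establishes and keeps the plasmacytoid identity, while ID2 opposes it and favours conventional dendritic cells. SPIB, BCL11A and RUNX2 act with TCF4 in the plasmacytoid program, and ZEB2 represses Id2 in mouse dendritic cell precursors. Plasmacytoid dendritic cells express CD123 at a high level, and so does the leukemia that arises from them.

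The libraries held 10669560 to 14933494 reads. The 10 MTRNR2L rows, which copy mitochondrial ribosomal RNA, took 27.2% to 70.0% of them, most in bulk replicate 1. The CD123 gate was visible in IL3RA, the gene of CD123, which had 140, 48.0 and 135 CPM in LSC of mice 1, 2 and 3, against 1.54, 2.12 and 2.37 CPM in bulk. CPM are reads scaled to the normalized library size of each sample. CD33, required by both gates, was low in RNA, at 6.80, 8.05 and 1.17 CPM in LSC and 4.45, 8.21 and 13.1 CPM in bulk. Its groups overlapped (limma adjusted p = 0.512, and 0.391 when blocked on the mouse). CD34, a surface marker of hematopoietic stem and progenitor cells, had 5.39, 3.23 and 0.729 CPM in LSC and 17.3, 7.20 and 26.8 CPM in bulk, so the population labelled as stem cells did not have the higher level of it (limma adjusted p = 0.0960, and 0.0361 when blocked on the mouse).

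Of the 8 genes, 4 were higher in LSC than in bulk (RUNX2, TCF4, SPIB and BCL11A), none was lower, and TCF3, TCF12, ID2 and ZEB2 did not pass. Across the 13755 genes tested with limma, 2.71% were called higher and 1.33% lower at an adjusted p under 0.05. The median log2 change was 1.10 over the 8 genes and -0.0036 over all genes tested. The 8 genes were chosen with earlier results known, so these contrasts with all genes are no independent evidence. Blocking on the mouse, the same 4 genes were called higher and none lower, while 8.25% of all genes were then called higher and 7.71% lower. The groups did not overlap for these 4 genes, with every LSC library above every bulk library, as was the case for 13.2% of all genes tested. The rise was seen in 3 of 3 mice, which held for 27.3% of all genes, and 25.8% were lower in 3 of 3 mice. In sorted populations, more cells of a type and more RNA per cell cannot be told apart.

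**Figure D1:**
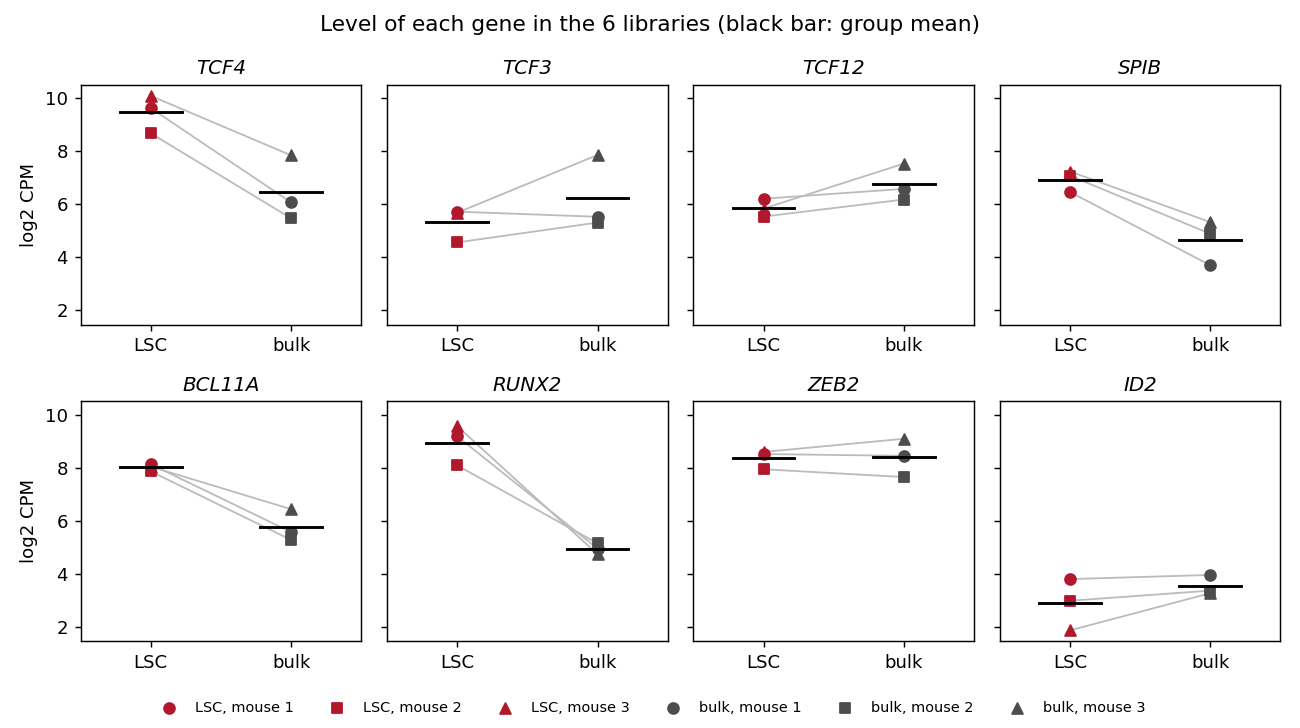
Level of each gene on the log2 CPM scale in the LSC libraries (left, red) and bulk libraries (right, grey), with lines joining the libraries of 1 mouse and black bars at the group means. RUNX2, TCF4, SPIB and BCL11A lay higher in all 3 LSC libraries than in any bulk library, and the groups overlapped for the other 4 genes.

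TCF4 encodes the E protein that defines plasmacytoid dendritic cells. It had 789, 409 and 1089 CPM in LSC of mice 1, 2 and 3, against 67.3, 44.4 and 230.1 CPM in bulk. The lowest LSC library, that of mouse 2, was 1.78-fold above the highest bulk library, that of mouse 3. TCF4 averaged 762 ± 341 CPM in LSC and 114 ± 101 CPM in bulk (mean ± SD, n = 3 each), with a log2 change of 3.00 (SE 0.59, limma adjusted p = 0.0261). Within mice 1, 2 and 3 the LSC level was 11.7-fold, 9.22-fold and 4.73-fold that of bulk. In bulk the gene varied 5.18-fold between mice. The call did not hold when any of 4 single libraries was left out, with adjusted p of 0.0879 and 0.0685 without bulk replicates 1 and 2, and 0.0814 and 0.0822 without LSC replicates 1 and 3. The log2 change then stayed between 2.50 and 2.92. Without both libraries of mouse 1 or 2 the adjusted p was 0.262 and 0.0809. Blocking on the mouse gave an adjusted p of 0.000301.

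TCF3, which encodes the E protein splice forms used throughout early B cell development, had 52.8, 23.6 and 51.4 CPM in LSC, against 46.2, 39.7 and 232 CPM in bulk. The groups overlapped, and bulk replicate 3 stood alone. The log2 change was -0.91 with a 95% interval of -2.36 to 0.54 (adjusted p = 0.461), and -0.10 without bulk replicate 3 (adjusted p = 0.920). With all 6 libraries and the mouse as a block, the interval was -1.80 to -0.02, and TCF3 did not pass (limma adjusted p = 0.144). TCF12, which encodes a broadly expressed E protein of lymphoid and muscle cells, had 74.0, 46.5 and 57.3 CPM in LSC, against 95.9, 72.6 and 185 CPM in bulk. It was lower in LSC within each of the 3 mice, but the mean difference did not pass, with a log2 change of -0.90, a 95% interval of -1.76 to -0.04 and an adjusted p of 0.227. The unadjusted p was 0.0418. Without bulk replicate 3 the change was -0.52 (adjusted p = 0.423). With all 6 libraries and the mouse as a block, the interval was -1.53 to -0.27, and TCF12 did not pass (limma adjusted p = 0.0585).

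Bulk replicate 3 had the highest bulk level of all 3 E protein genes, and it also stood apart in B lineage markers. Summed over 18 markers of B cells and their progenitors, the level was 274 to 350.2 CPM over the 3 LSC libraries, against 706, 769 and 2890 CPM in bulk replicates 1, 2 and 3. Of the 17 markers tested, none rose and 3 fell in LSC, with a median log2 change of -2.13, and 9 fell with the mouse as a block. Those that fell in both fits were PAX5, which commits cells to the B lineage, at 14.1, 6.97 and 18.5 CPM in LSC and 127, 59.9 and 491 CPM in bulk, together with EBF1 and CD24. VPREB3, a partner of the pre-B cell receptor, had 0.148, 0.190 and 0 CPM in LSC and 2.40, 1.78 and 29.3 CPM in bulk. It passed only with the block (limma adjusted p = 0.0589, and 0.0374 with the block), and its LSC values rest on 2, 3 and 0 reads. No member of the list was without reads in either population. The part of these markers in the levels of TCF3, TCF12 and TCF4 was not tested. TCF4 remained higher in LSC without bulk replicate 3, with a log2 change of 3.69 (adjusted p = 0.00315).

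**Figure D2:**
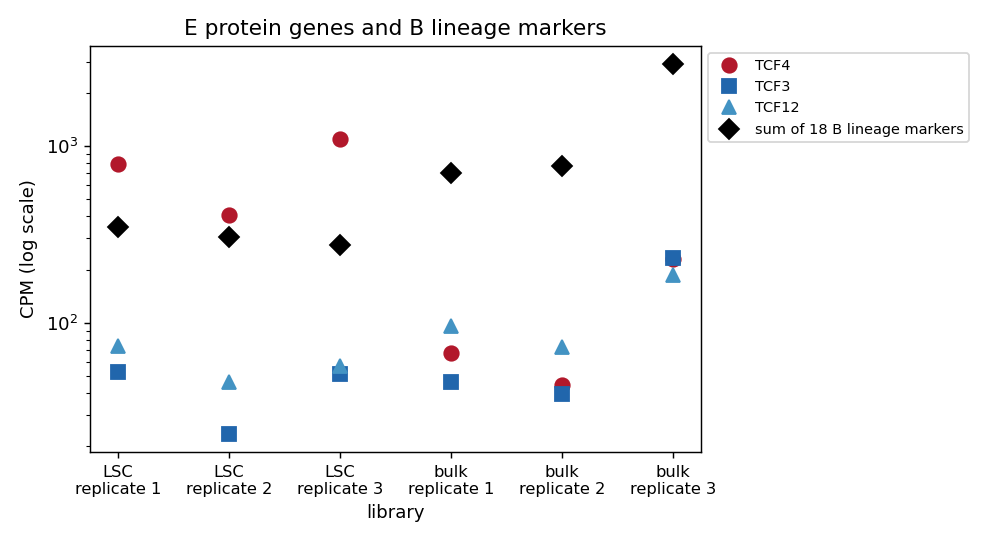
CPM on a log axis of TCF4, TCF3 and TCF12 and the summed CPM of 18 B lineage markers in each library, LSC to the left of bulk. In bulk replicate 3 the marker sum was 2890 CPM and TCF3 was 232 CPM, the highest values of both, while TCF4 was highest in LSC replicate 3 at 1089 CPM.

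The division of reads among the 3 E protein genes differed between the populations. TCF4 took 86.2% (95% Wilson interval 85.5 to 86.8), 85.4% (84.6 to 86.2) and 90.9% (90.5 to 91.3) of E protein reads in LSC of mice 1, 2 and 3. In bulk it took 32.1% (29.6 to 34.8), 28.3% (26.3 to 30.4) and 35.5% (34.6 to 36.5). The shares averaged 87.5% ± 3.0 in LSC and 32% ± 3.6 in bulk (SD, n = 3 each), and each population was narrow although the mice differed widely in the level of TCF4. The intervals cover counting error only. The share rests on 12400, 7561 and 16419 E protein reads in LSC and on 1223, 1850 and 10124 in bulk. Gene lengths are not taken into account, so a share can be compared between libraries but not between genes. The share of TCF12 was 4.79% to 9.69% in LSC and 45.8%, 46.3% and 28.6% in bulk replicates 1, 2 and 3. That of TCF3 was 4.29% to 5.77% in LSC and 22.1%, 25.4% and 35.9% in bulk, so bulk replicate 3 had the lowest bulk share of TCF12 and the highest of TCF3. The E protein genes together summed to 864 ± 362 CPM in LSC and 338 ± 270 CPM in bulk.

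**Figure D3:**
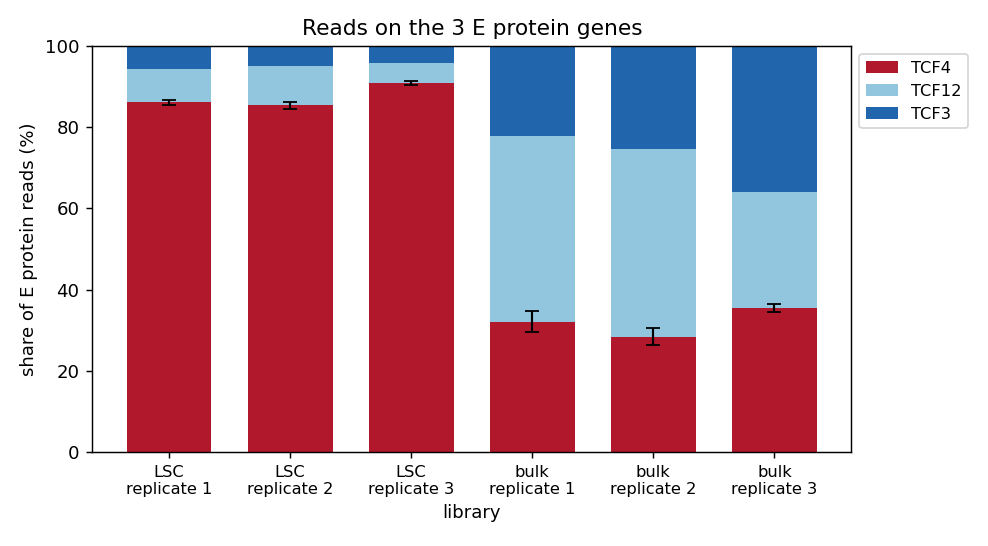
Share of the reads on TCF4, TCF12 and TCF3 in each library, with LSC on the left, bulk on the right and whiskers giving the 95% Wilson interval of the TCF4 share. TCF4 held 85.4% to 90.9% of these reads in LSC and 28.3% to 35.5% in bulk.

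Differences between genes within a library do not depend on how libraries were scaled, and 4 of them were compared between the populations. TCF4 exceeded TCF3 by 3.90, 4.11 and 4.40 log2 units in LSC of mice 1, 2 and 3, against 0.54, 0.16 and -0.01 in bulk. The TCF4 to TCF3 ratio was thus 15.0-fold higher in LSC, a difference of 3.91 log2 units. The TCF4 to TCF12 ratio was likewise higher, by 3.90 log2 units, with within-mouse values of 3.92, 3.85 and 3.94. Both differences had p = 0.1 in an exact two-sided permutation test, the smallest p that 3 libraries against 3 can give, and 0.133 after adjustment over the 4 comparisons. This test cannot pass a threshold of 0.05 with 3 libraries a group. An exact two-sided sign-flip permutation test of the within-mouse shifts gave p = 0.25 for all 4 comparisons, the smallest that 3 mice allow in it.

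ID2, the inhibitor of E proteins that opposes TCF4, was low in both populations. It had 14.0, 7.92 and 3.65 CPM in LSC, against 15.6, 10.3 and 9.66 CPM in bulk. These values rest on 189, 125 and 50 reads in LSC and on 91, 122 and 151 reads in bulk. The level was lower in LSC within each mouse, but the groups overlapped and the log2 change of -0.65 did not pass (95% interval -1.83 to 0.54, adjusted p = 0.522). LSC replicate 3 had the lowest level, and without that library the change was -0.14. The change rests on few reads and does not exclude a lower level in LSC by 1.83 log2 units or a higher one by 0.54.

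The balance of TCF4 to ID2 separated the populations. The log2 difference TCF4 minus ID2 was 5.82, 5.69 and 8.21 in LSC of mice 1, 2 and 3, against 2.11, 2.10 and 4.57 in bulk. Mouse 3 had the highest balance in both populations, yet the within-mouse shifts were nearly alike at 3.71, 3.59 and 3.64 log2 units. The mean shift of 3.65 log2 units, a 12.5-fold change of the ratio, had an exact permutation p of 0.1 (adjusted 0.133). It was 2.83 without LSC replicate 3 and 4.47 without bulk replicate 3, while leaving out both libraries of a mouse gave 3.61 to 3.68. Most of it lay in TCF4, whose own log2 change was 3.00, against -0.65 for ID2.

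ZEB2, a zinc finger repressor of dendritic cell and monocyte development, was nearly level between the populations. It had 367, 246 and 387 CPM in LSC, against 350.1, 201 and 546 CPM in bulk. Mice 1 and 2 had slightly more in LSC and mouse 3 less. The log2 change was -0.05 with a 95% interval of -0.91 to 0.82 (adjusted p = 0.959), so a change of 1.76-fold upward or one to 0.532-fold lay within the interval. Its sign turned without bulk replicate 3 (0.30) and under several other settings. The log2 difference ZEB2 minus ID2 averaged 5.46 ± 1.10 in LSC and 4.86 ± 0.84 in bulk (SD, n = 3 each), a shift of 0.60 (exact permutation p = 0.5). Within mice 1, 2 and 3 the shift was 0.22, 0.68 and 0.90. It was -0.029 without LSC replicate 3, which leaves that library's bulk partner in, and 0.79, 0.56 and 0.45 without both libraries of mouse 1, 2 or 3.

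SPIB encodes an Ets family factor of plasmacytoid dendritic cells and B cells. It had 88.2, 135 and 151 CPM in LSC, against 13.0, 29.6 and 40.2 CPM in bulk. The order of the mice was the same in both populations, with mouse 1 lowest and mouse 3 highest. SPIB averaged 125 ± 32.6 CPM in LSC and 27.6 ± 13.7 CPM in bulk (n = 3 each), with a log2 change of 2.28 (SE 0.44, limma adjusted p = 0.0235). The within-mouse folds were 6.77, 4.55 and 3.75. The call was lost without bulk replicate 1 or 2 (adjusted p = 0.0551 and 0.0536) and without LSC replicate 2 or 3 (0.0579 and 0.0780), at log2 changes of 1.82 to 2.41. It was also lost without both libraries of mouse 1 or 2 (0.105 and 0.139). These fits had no block, and with the mouse as a block on all libraries SPIB had a limma adjusted p of 0.000857.

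BCL11A encodes a zinc finger factor needed for plasmacytoid dendritic cells and lymphocytes and known as a repressor of fetal globin. It had 281, 233 and 264 CPM in LSC, against 47.8, 38.9 and 86.8 CPM in bulk. The LSC level was the most even among mice of all 8 genes, with an SD of 0.14 on the log2 scale. BCL11A averaged 259 ± 24.1 CPM in LSC and 57.8 ± 25.5 CPM in bulk (n = 3 each), with a log2 change of 2.25 (SE 0.34, limma adjusted p = 0.00807). It stayed called without any single library, but not without both libraries of mouse 1 or 2 (adjusted p = 0.165 and 0.0729). These fits had no block, and with the mouse as a block on all libraries BCL11A had a limma adjusted p of 0.000968. Within mouse 3, whose bulk library had the highest bulk level, the LSC level was 3.04-fold that of bulk, against 5.88-fold and 6.0-fold in mice 1 and 2.

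RUNX2 encodes a Runt family factor required in mice for plasmacytoid dendritic cells to leave the marrow, and is otherwise known from bone formation. It had the largest change of the 8 genes, with 583, 273 and 759 CPM in LSC of mice 1, 2 and 3, against 31.0, 35.6 and 26.8 CPM in bulk. The bulk libraries lay within a 1.33-fold range, and the lowest LSC library was 7.67-fold above the highest bulk library. RUNX2 averaged 538 ± 246 CPM in LSC and 31.1 ± 4.38 CPM in bulk (n = 3 each), with a log2 change of 4.0 (SE 0.38, limma adjusted p = 0.000979). It ranked 129 by size of rise among 13755 genes, and TCF4, SPIB and BCL11A ranked 235, 405 and 417. The call held without any single library, but not without both libraries of mouse 1 (adjusted p = 0.0570). These fits had no block, and with the mouse as a block on all libraries RUNX2 had a limma adjusted p of 0.000255. RUNX2 and TCF4 shared the order of mice in LSC, highest in mouse 3 and lowest in mouse 2, but in bulk RUNX2 was lowest in mouse 3 and TCF4 highest there. Mouse 3 accordingly had the largest within-mouse rise of RUNX2 (28.3-fold) and the smallest of TCF4 (4.73-fold).

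**Figure D4:**
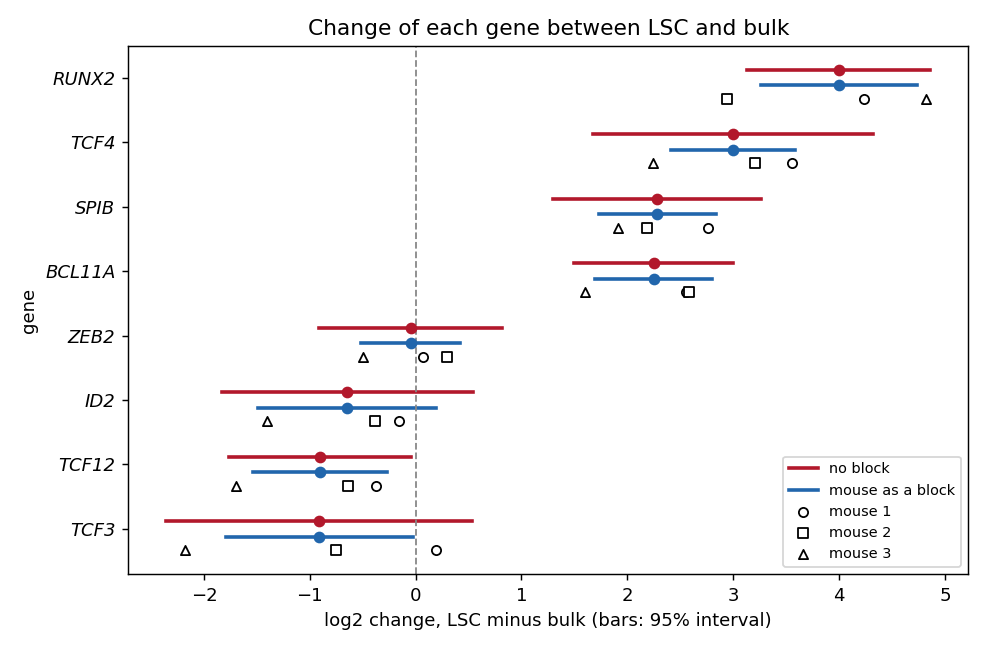
Log2 change of each gene, LSC minus bulk, with 95% intervals from limma without a block (red) and with the mouse as a block (blue), and open symbols for the differences within each mouse. RUNX2, TCF4, SPIB and BCL11A had intervals above 0 in both fits, at changes of 4.0, 3.00, 2.28 and 2.25. ZEB2 and ID2 had intervals that include 0 in both fits. The interval of TCF12 lay below 0 in both fits and that of TCF3 only with the block, but neither gene passed after adjustment.

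The authors' deposited table ranked the same 4 genes as its strongest among the 8. Its log2 fold changes, coded there as bulk minus LSC, were -4.01 for RUNX2, -3.0 for TCF4, -2.25 for BCL11A and -2.28 for SPIB. The false discovery rates in the authors' deposited table were 0.0910, 0.133, 0.146 and 0.149 in the same order, and none of its genes had a rate under 0.05. These values come from the same libraries and are no separate support.

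The genes whose profiles over the 6 libraries lay closest to each of the 8 were found by the root mean square difference of mean-centred log2 CPM, a description without a test. AHNAK2, FMNL3 and ABHD15 lay closest to TCF4, at 0.27, 0.28 and 0.33 log2 units, where the median gene lay at 1.79. RUNX2 was closest to DNASE1L3, NOTCH4 and HERPUD1 (0.22, 0.30 and 0.35, median gene 2.12). LIMD1, FAM213A and CD4, the T cell coreceptor that plasmacytoid dendritic cells also carry, were closest to SPIB (0.18, 0.23 and 0.25). RAP1GDS1, LHFPL2 and MS4A6A were closest to BCL11A (0.18, 0.20 and 0.21). TCF3 was closest to GCSAM, a gene of germinal centre B cells, CD38 and LIG4 (0.14, 0.17 and 0.18), and TCF12 to SNX2, ERGIC1 and RSBN1L (0.11, 0.12 and 0.12). ZEB2 was closest to KIAA1551, JADE3 and PIK3C2A (0.10, 0.11 and 0.11), and ID2 to GADD45A, PLEKHM2 and ZDHHC13 (0.11, 0.15 and 0.17). None of the 8 genes was among the 3 closest profiles of another.

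Of 22 listed partners, inhibitors and co-regulators of E proteins, 10 were tested. The remaining 12, ID1, ID3 and ID4 among them, had no row under those symbols in the deposited table. CBFA2T3 rose, none fell and 9 did not pass, with a median log2 change of -0.17. CBFA2T3, a corepressor that binds E proteins, had 144, 97.9 and 146 CPM in LSC and 46.4, 62.8 and 48.2 CPM in bulk (log2 change 1.29, SE 0.29, adjusted p = 0.0429). In the fit blocked on the mouse 2 rose and 3 fell. BHLHE40, a repressor of the same protein class, joined the risen genes at 52.0, 41.5 and 23.0 CPM in LSC and 15.6, 17.0 and 3.65 CPM in bulk (adjusted p = 0.123, 0.00689 with the block). TAL1, the partner of E proteins in blood stem cells and erythroid cells, fell with the block, at 17.1, 45.2 and 5.32 CPM in LSC and 84.9, 151 and 24.2 CPM in bulk (adjusted p = 0.199, 0.0014 with the block). LDB1 and LMO2, which bridge TAL1 complexes, also fell with the block (log2 changes -1.66 and -0.90). The summed level of 13 erythroid markers was 80.5 to 636 CPM in LSC and 380.0 to 1739 CPM in bulk. Of these 13, none rose and 3 fell (HBB and CA1 among them), or 11 with the block, and none was without reads in either population. Their part in the levels of TAL1, LDB1 and LMO2 was not tested.

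Other transcription factors of plasmacytoid dendritic cells moved unevenly. Of 24 tested, 4 rose (IRF8, IRF7, CUX2 and ZFAT), 1 fell (MYB) and 19 did not pass, with a median log2 change of 0.44. CUX2, a homeobox factor expressed in plasmacytoid dendritic cells, had 165, 59.8 and 397 CPM in LSC and 1.2, 1.27 and 3.33 CPM in bulk (log2 change 6.50, SE 0.68, adjusted p = 0.00141). Its order among mice in LSC was that of TCF4 and RUNX2. ZFAT, a zinc finger gene, had 227, 125 and 174 CPM in LSC and 14.4, 16.9 and 13.9 CPM in bulk (log2 change 3.50, adjusted p = 0.000718). IRF8 and IRF7, interferon regulatory factors of dendritic cells, had log2 changes of 4.54 and 4.82. MYB, a progenitor factor, was lower at 336, 173 and 153 CPM in LSC and 723, 545 and 579 CPM in bulk (log2 change -1.56, adjusted p = 0.0366). With the block XBP1 and ZEB1 were also called higher (adjusted p = 0.0186 and 0.0254).

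Close relatives of the 8 genes were on the same list, and none passed the unblocked test. ZEB1, the paralog of ZEB2, had 335, 147 and 429 CPM in LSC and 156, 108 and 213 CPM in bulk (log2 change 0.85). RUNX1 and RUNX3, the other Runt factors, had log2 changes of 0.37 and 0.65 (adjusted p = 0.491 and 0.356). CBFB, the shared partner subunit of Runt factors, had a change of -0.45 (adjusted p = 0.570). SPI1, the Ets factor closest to SPIB, had 4.06, 1.14 and 1.82 CPM in LSC and 4.45, 5.67 and 2.62 CPM in bulk (log2 change -0.98, adjusted p = 0.428). The differences between these relatives and the members were not tested. These 5 genes were picked for their kinship and after their values were seen.

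**Figure D5:**
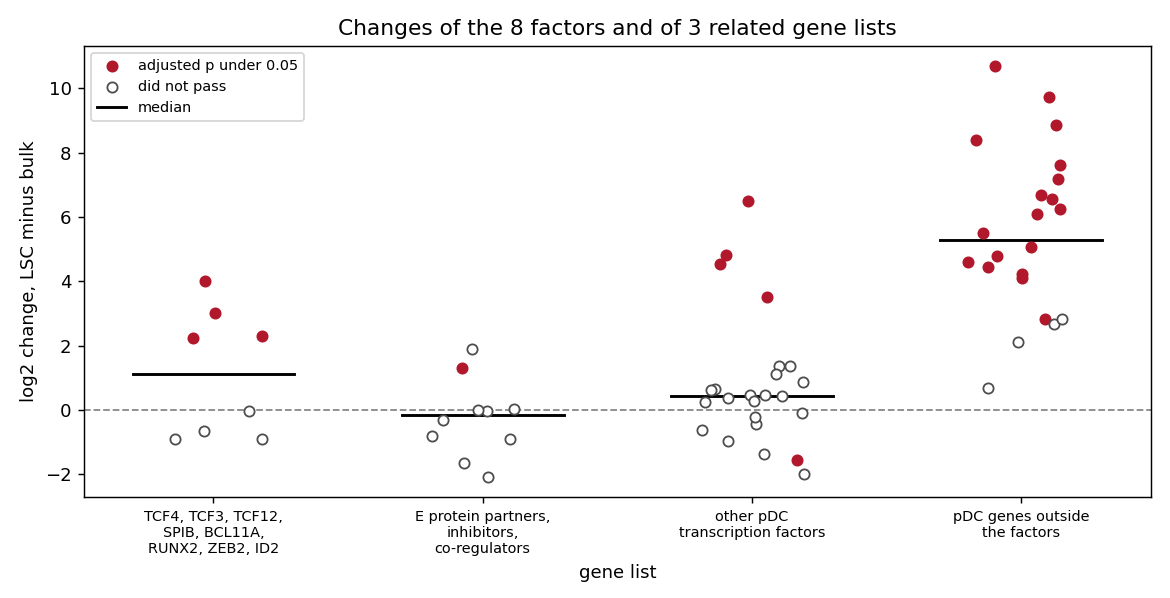
Log2 change, LSC minus bulk, of each tested gene of the 8 factors and of 3 related lists (pDC, plasmacytoid dendritic cell). Filled points passed an adjusted p of 0.05, open points did not, and bars give medians, which ran from -0.17 for E protein partners to 5.28 for plasmacytoid genes outside the factors.

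Most of the listed genes that plasmacytoid dendritic cells express, apart from their factors, rose. Of 22 tested, 18 rose, none fell and 4 did not pass (MZB1, TCL1A, PLD4 and BLNK), with a median log2 change of 5.28. With the block 21 rose. The list was known to be higher in these libraries when it was drawn up, so its count is no independent evidence. CLEC4C, a surface lectin under TCF4 control, had 127, 80.1 and 95.1 CPM in LSC and 2.05, 3.47 and 3.52 CPM in bulk. The log2 changes of SERPINF1, COBLL1 and CCDC50 were 5.48, 4.59 and 4.78 (adjusted p between 0.00048 and 0.000587). The summed level of the 22 genes was 3002 to 4848 CPM in LSC and 147 to 398 CPM in bulk, highest in bulk replicate 3 and lowest in bulk replicate 1. SCT alone had no read in any bulk library, and setting it at the bound given by 3 reads over the bulk group left the median at 5.28.

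Among trafficking genes that depend on Runx2 in mouse plasmacytoid dendritic cells, CCR2 rose, and ITGB7, ITGA4 and CXCR4 did not pass. CCR2, a chemokine receptor used to leave the marrow, had 62.6, 80.1 and 67.8 CPM in LSC and 5.48, 12.2 and 6.01 CPM in bulk (log2 change 3.24, SE 0.38, adjusted p = 0.00276). In LSC it was highest in mouse 2, where RUNX2 was lowest. ITGB7, ITGA4 and CXCR4 had log2 changes of 0.75, -0.52 and 0.45.

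Markers of the cell types that ID2 favours were mixed. Of 11 conventional dendritic cell markers tested, THBD rose, none fell and 10 did not pass (median log2 change 0.57), and 4 rose and 1 fell with the block. THBD, thrombomodulin, had 79.5, 35.6 and 19.2 CPM in LSC and 3.08, 3.30 and 1.41 CPM in bulk (adjusted p = 0.00752), and it is also found on other myeloid cells. CLEC10A, IDO1 and LAMP3 passed with the block (adjusted p = 0.0361, 0.0297 and 0.0234). CLEC9A, a defining marker of cross-presenting dendritic cells, was at 0.961, 1.84 and 0.146 CPM in LSC and 4.28, 5.76 and 1.15 CPM in bulk. It passed in neither fit (limma adjusted p = 0.282, and 0.0744 with the block), and its LSC values rest on 13, 29 and 2 reads. The summed level was 127 to 192 CPM in LSC and 95.3 to 132 CPM in bulk. Of 10 markers of T, NK and innate lymphoid cells none passed in either fit, with a summed level of 125 to 163 CPM in LSC and 110 to 181 CPM in bulk.

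Markers of myeloid cells, which also use ID2 and ZEB2, had negative median changes. Of 11 monocyte markers VCAN fell, none rose and 10 did not pass, with a median of -1.43, and 6 fell with the block. The summed monocyte level was 1044 to 2741 CPM in LSC and 3642 to 5768 CPM in bulk. Of 12 granulocyte precursor markers none passed and 8 fell with the block, with a median of -2.04. Their summed level was 599, 1330.4 and 110 CPM in LSC of mice 1, 2 and 3, against 1843, 4588 and 267 CPM in bulk, so both libraries of mouse 3 were low. The same mouse had the highest level of TCF4 and SPIB in each population and the lowest of ID2. The part of these marker levels in the differences between mice was not tested.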

How the data were processed

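RNA of 3 LSC and 3 bulk samples was amplified with a NuGEN Ovation kit, per the labels' protocols. Tools named in the submitters' processing notes are Bowtie2, RSEM and edgeR, with the build hg19, without roles or versions. Each sample value in the authors' deposited table is a log2 CPM. The same deposited table gives the authors' log2 fold change, the score of their likelihood ratio test, and a p-value and rate of false discoveries per gene, per the file headers. All sample columns shared a floor of 0.0197 CPM. Subtracting it gave CPM and, divided by the value of 1 read, reads that were whole within 0.1 for 100% of values. Normalized library sizes were 5840753 to 15773981, and 3 reads were worth 0.190 to 0.514 CPM.

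Testing took the 13755 of 13892 genes that reached 1 CPM in 3 or more libraries and used limma 3.58.1 in R 4.3.3 (eBayes with trend, two-sided, Benjamini-Hochberg over all genes, threshold 0.05), without a block. The code was tested on simulated reads. Deviations of same-mouse libraries correlated at 0.33, 0.35 and 0.30 over genes, and libraries share the mouse by design, so the mouse pairs them. No library pair agreed within sampling noise. Alternatives were pseudocounts, filters, scalings, eBayes without trend, array weights, voom, the block, a random mouse effect and leaving out libraries or mice.

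The 8 genes, lists and tests were chosen with earlier results of these data known. The text names the 8 genes, the 3 closest profiles of each and up to 4 members of each list with the largest moderated statistic. TCL1A, PLD4, MZB1, BLNK, SCT, LMO2, XBP1, MYB, CLEC9A, CXCR4, IL3RA, CD33 and CD34 and the relatives of the 8 were named after their values were seen. ID1, ID3 and ID4 were named without values, as they had no row under those symbols. The organism label names the mouse host while symbols and build are human. The gene reference at hand is of mouse, so no coordinates or sequences are given. Rows are gene-level, so splice forms of TCF4 and TCF3 are not separated. SUPT3H overlaps RUNX2, and antisense genes lie at ZEB2 and ID2. The sources used here do not say whether counting used strand. Some genes of the lists are not reported here by name.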

Additional observations from a re-analysis of the deposited data

How the results depend on the processing

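RUNX2, TCF4, SPIB and BCL11A kept a positive change in all 26 alternatives, at log2 changes of 3.59 to 4.53, 2.50 to 3.69, 1.82 to 2.63 and 2.00 to 2.58. Their calls were lost in 1, 7, 7 and 2 alternatives, with adjusted p up to 0.0570, 0.262, 0.139 and 0.165. Without trend, eBayes called 2 of the 8 genes, RUNX2 and BCL11A (limma adjusted p = 0.0105 and 0.0466). TCF4 and SPIB were lost there (0.0862 and 0.0793). Leaving out 1 library or mouse without a block called 0 to 4 of the 8 genes higher, 0 without mouse 1 and 1 (RUNX2) without mouse 2. With the mouse as a replicate block the 4 calls held, also without any 1 mouse, and the block changed no other call among the 8. TCF12 was called lower with voom and the block (adjusted p = 0.0350), which made 1 gene lower. ZEB2 turned sign with array weights (0.10), quantile normalization (0.10), scaling to reads outside MTRNR2L (0.010), without bulk replicate 3 (0.30), without LSC replicate 2 (0.16) and without mouse 3, blocked or not (0.18), and never passed. Without 1 library its change ran from -0.42 (without bulk replicate 2) to 0.30. ZEB2 minus ID2 ran from -0.029 without LSC replicate 3 to 1.08 without bulk replicate 3. TCF4 minus ID2 ran from 2.83 (without LSC replicate 3) to 4.47 (without bulk replicate 3). TCF4 minus TCF3 lay between 3.66 and 4.18, TCF4 minus TCF12 between 3.58 and 4.21, and the difference in TCF4 share between 53.7 and 57.3 percentage points.

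Over all genes 373 were higher and 183 lower in LSC. The counts were 1135 and 1060 with the replicate block, 1090 and 983 with a random mouse effect, 1216 and 1217 with voom and the block, and 197 and 54 without trend. Pseudocounts of 1 and 5 CPM and array weights called 302, 280 and 282 lower. Without 1 bulk library 204 to 346 genes were higher and 38 to 128 lower, and without 1 LSC library 168 to 303 and 50 to 169. Without 1 mouse 37, 85 and 252 were higher and 0, 8 and 74 lower (mice 1, 2 and 3). With the block, leaving out mouse 1, 2 or 3 gave 386, 444 and 1747 higher and 344, 296 and 1567 lower. A fit without mouse 1 leaves 2 libraries against 2. Depth limits ID2 most, at 50 to 189 reads per library. No scaling moved the median change of all genes by over 0.1.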
